A study of Homo sapiens with 12 samples.

Results

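The transport genes described here are *CFTR* and 9 partners from the apparatus with which the pancreatic duct moves salt, bicarbonate and water. These are *SLC4A4*, *SLC26A6*, *SLC9A3R1*, *CA2*, *CA12*, *SCNN1A*, *ANO1*, *AQP3* and *AQP5*. Their rows were taken by gene symbol, and all 10 are among the 23346 genes of the deposited table. The sequenced RNA came from SW1990 and CFPAC-1, established lines of human pancreatic adenocarcinoma, after fluorescence sorting with GCTM-5, an antibody against a cell surface glycoconjugate. Each line gave 3 samples of strongly stained (positive) cells and 3 of unstained (negative) cells, and cells of intermediate staining were left out. There were thus 12 samples in 4 groups, and no other treatment is named. CFPAC-1 was established from a person with cystic fibrosis, the inherited disease of CFTR, so that both of its groups share that origin. The replicates were separate sorts of cultured cells of a single line, and p-values therefore measure the spread between sorts and not between tumours. A lower value may mean fewer expressing cells or less RNA per cell, which cannot be told apart in these bulk samples.

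Duct cells take up bicarbonate across their basolateral membrane with the sodium bicarbonate cotransporter encoded by *SLC4A4*, or make it from carbon dioxide with carbonic anhydrases such as CA2 and CA12. Bicarbonate leaves across the apical membrane through the CFTR anion channel and SLC26-type exchangers, and CFTR is tethered there by the scaffold NHERF1, the product of *SLC9A3R1*. The calcium-activated chloride channel ANO1, the epithelial sodium channel with its SCNN1A subunit, and the aquaporin water channels AQP3 and AQP5 act in the same fluid transport.

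Levels are given as RPKM, reads scaled to gene length and library size, which allows comparison between genes. Library totals recovered from the values ranged from 9969697 reads, in CFPAC-1 positive replicate 3, to 26159330 reads (median 19434083). Fold changes are differences of log2(RPKM + 0.1) fitted with limma over 16236 genes (mean RPKM 0.1 or more), and understate the change of genes with low values. A gene was called, and is said to rise or fall, at a change of more than 2-fold and an unadjusted p-value below 0.01. Adjusted p-values are Benjamini-Hochberg values from limma over all genes fitted. Of the 10 transport genes, 9 passed the filter on low values, and *CFTR* did not.

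Several transport genes changed with the sort, partly in different ways in SW1990 and CFPAC-1. In SW1990, 5 of the 9 tested were called between positive and negative cells, beside 12.1% of all genes tested. *AQP3*, *AQP5*, *SCNN1A* and *ANO1* rose in positive cells (4.59% of all genes did) and *CA12* fell (7.48% of all genes). In CFPAC-1, 3 of the 9 were called, beside 9.78% of all genes, with *AQP3* higher (5.65% of all genes) and *CA12* and *SCNN1A* lower (4.13%) in positive cells. Thus *AQP3* rose and *CA12* fell in each line, whereas *SCNN1A* moved in opposite directions. Samples of the positive and negative groups did not overlap for 6 of the 9 genes in SW1990 (43.3% of all genes) and for 6 of the 9 in CFPAC-1 (48.5% of all genes). The median log2 fold change of the 9 genes was 0.58 in SW1990, against -0.04 over all genes, and 0.03 in CFPAC-1, against 0.05 over all genes.

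More of the transport genes were called between the lines than between sorted populations of a line, as were more of all genes. Between negative cells of SW1990 and CFPAC-1, 8 of the 9 genes were called, 3 of them higher in SW1990 and 5 lower, beside 36.9% of all genes (21.9% higher and 15% lower). Between positive cells, 6 of the 9 were called, 2 higher and 4 lower in SW1990, beside 28.5% of all genes (14.8% higher and 13.7% lower). Samples of the lines did not overlap for 9 of 9 genes among negative cells (75.2% of all genes) and for 8 of 9 among positive cells (63.9% of all genes). The median over all genes was itself 0.19 in the comparison of negative cells and fell to 0.01 when each sample was centred on its median, and line differences below are given as deposited.

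**Figure D1:**
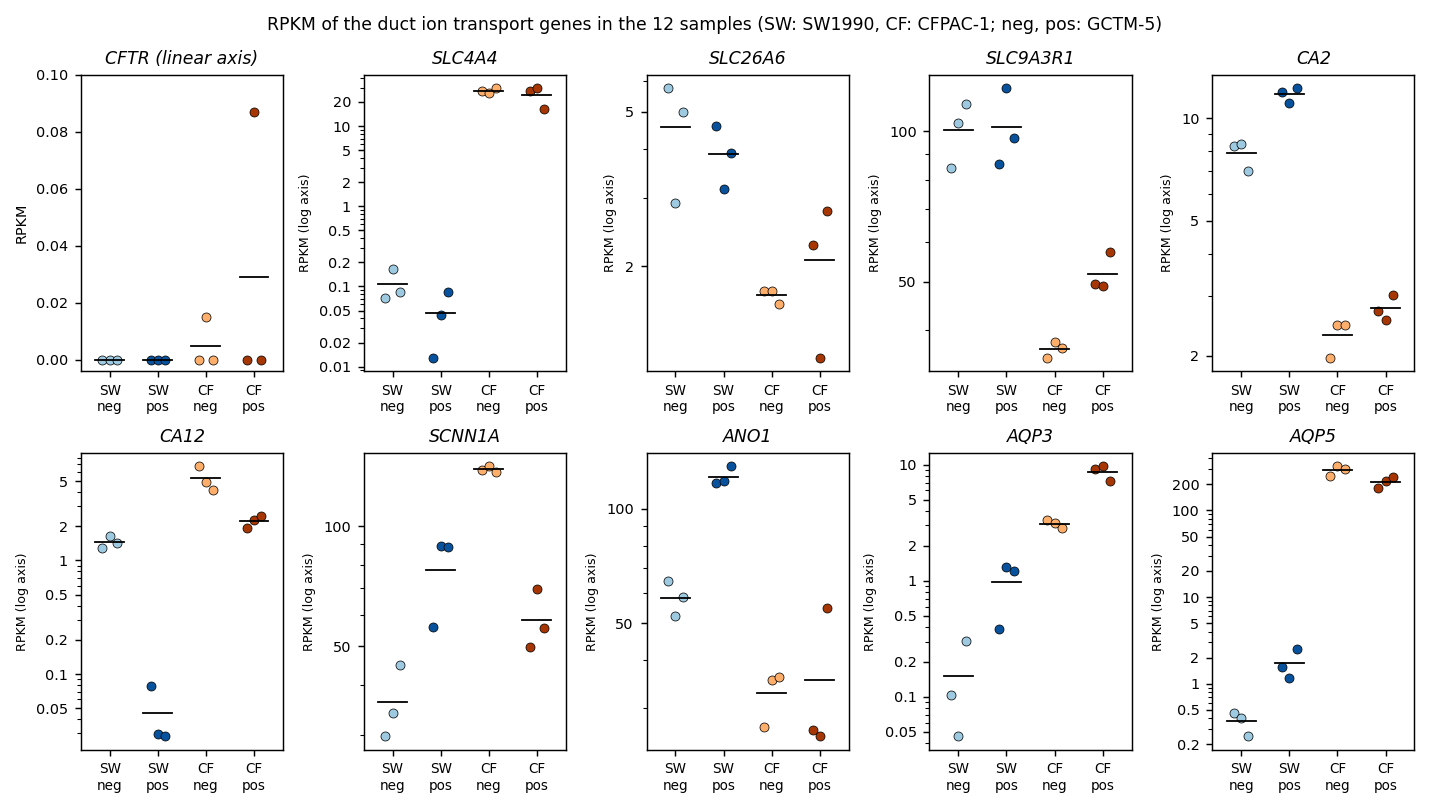
RPKM of each transport gene in the 12 samples, with 1 point per sample and a bar at the mean of 3, in SW1990 (SW) and CFPAC-1 (CF) cells negative (neg) and positive (pos) for GCTM-5. The axis is linear for *CFTR* and logarithmic for the other 9 genes. *CFTR* is above 0 in 2 samples, while *SLC4A4* and *AQP5* show the widest gaps between the lines. *SLC26A6*, *SLC9A3R1*, *CA2*, *CA12* and *AQP3* also separate the lines without overlap. Of all genes, 75.2% do not overlap between the lines in negative and 63.9% in positive cells.

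The label of pancreatic duct was checked against marker genes. Keratin 19 (*KRT19*) averaged 352 ± 2.86 RPKM in SW1990 negative and 1046 ± 56.1 RPKM in SW1990 positive cells (SD, n = 3), and 2854 ± 197 and 2596 ± 230 RPKM in CFPAC-1 negative and positive cells. *PROM1*, another duct gene, was near 0 in SW1990, with group means of 0.0250 and 0.0600 RPKM, against 40.9 and 27.0 RPKM in CFPAC-1. Summed levels of 8 acinar and 5 islet markers reached at most 0.624 and 0.210 RPKM in any sample.

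Epithelial and mesenchymal markers moved with the sort in SW1990. The summed level of 10 epithelial genes was 1706 to 2011 RPKM in negative and 5022 to 5326 RPKM in positive SW1990 cells, and 9 of the 10 rose. The summed level of 11 mesenchymal genes was 1312 to 1486 RPKM in negative and 223 to 407 RPKM in positive SW1990 cells, where 6 of the 9 tested fell and *TWIST1* was at 0 in every sample. In CFPAC-1 the epithelial sums were 7012 to 8045 RPKM in negative and 7625 to 9331 RPKM in positive cells, and 0 of the 10 were called. The mesenchymal sums there were 561 to 762 and 430.4 to 603 RPKM, and 2 of the 9 tested fell, *SPARC* and *ZEB1*. The part of these markers in the changes of the transport genes was not tested.

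*CFTR* encodes the apical anion channel and lies on chromosome 7 of GRCh37 (116927174 to 117356025, plus strand). *CFTR* was at 0 in all 3 negative and all 3 positive SW1990 samples. In CFPAC-1 it was at 0, 0.0149 and 0 RPKM in negative cells and at 0, 0.0869 and 0 RPKM in positive cells, replicate 2 being the one above 0 in each group. These values correspond to at least 1 and 5 reads. The gene length behind the RPKM was taken as 3060 bases, the shortest that gave whole reads to within 0.01. The canonical transcript has 6070 bases, and a longer length would mean more reads. A count of 0 allows up to 3 reads, which at 3060 bases come to 0.0375 to 0.0983 RPKM depending on the sample. The value of 0.0149 RPKM is below these limits. At that length 0.0869 RPKM is above the limits of all samples at 0 except CFPAC-1 positive replicate 3. A longer length would lower the limits, and this exception may then not hold. The limit covers counting error only, since PCR copies of a molecule are counted as separate reads. The mean over all 12 samples was 0.00848 RPKM. No fold change is given for *CFTR*, and neither the sort nor the line of origin could be compared. An antisense gene, *CFTR-AS1*, overlaps it on the minus strand (117200787 to 117204730), and the use of strand in the counting is not given in the sources used here.

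*SLC4A4* encodes the basolateral sodium bicarbonate cotransporter and lies on chromosome 4 (71928384 to 72437804, plus strand). In CFPAC-1 it stood at 27.0, 25.9 and 29.7 RPKM in negative cells and at 27.2, 29.9 and 16.3 RPKM in positive cells. In SW1990 it was at 0.0729, 0.166 and 0.0847 RPKM in negative cells and at 0.0129, 0.0441 and 0.0846 RPKM in positive cells, from 2 to 31 reads per sample. Every CFPAC-1 sample was far above every SW1990 sample, and the sorted populations overlapped within each line. The log2 difference of SW1990 from CFPAC-1 was -7.08 ± 0.26 (SE, adjusted p = 6.25e-10 with limma) in negative cells and -7.36 ± 0.26 (adjusted p = 6.48e-10) in positive cells. As ratios of mean RPKM, CFPAC-1 held 255 times the level of SW1990 in negative and 519 times in positive cells, the latter resting on 20 reads over the 3 SW1990 samples and reaching 859 times without SW1990 positive replicate 3. Sorting gave log2 fold changes of -0.50 ± 0.26 (adjusted p = 0.185) in SW1990 and -0.22 ± 0.26 (adjusted p = 0.553) in CFPAC-1, neither of them called. The value of 16.3 RPKM belongs to CFPAC-1 positive replicate 3, and without that sample the change in CFPAC-1 was 0.05.

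*SLC26A6* encodes an apical chloride bicarbonate exchanger, on chromosome 3 (48663156 to 48672926, minus strand). Its levels were 5.76, 2.91 and 5.01 RPKM in SW1990 negative and 4.58, 3.16 and 3.91 RPKM in SW1990 positive cells. CFPAC-1 held 1.72, 1.72 and 1.60 RPKM in negative and 2.28, 1.16 and 2.78 RPKM in positive cells. The populations overlapped within each line and the lines did not overlap within a population. *SLC26A6* was higher in SW1990 than in CFPAC-1 among negative cells by 1.33 ± 0.31 (log2, SE, adjusted p = 0.00198). Among positive cells the log2 difference was 0.94 ± 0.31 (adjusted p = 0.0180) and fell short of 2-fold. The sort gave -0.19 ± 0.31 (adjusted p = 0.707) in SW1990 and 0.20 ± 0.31 (adjusted p = 0.643) in CFPAC-1.

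*SLC9A3R1*, named *NHERF1* in the annotation, encodes the PDZ scaffold that binds the tail of CFTR, on chromosome 17 (72744767 to 72765492, plus strand). It was at 84.4, 104 and 113 RPKM in SW1990 negative and 86.1, 122 and 97.2 RPKM in SW1990 positive cells. In CFPAC-1 it was at 35.2, 37.9 and 36.7 RPKM in negative and 49.4, 49.0 and 57.3 RPKM in positive cells. RNA of the scaffold was thus abundant in all 12 samples, including those in which *CFTR* was at 0. SW1990 negative cells exceeded CFPAC-1 negative cells by 1.44 ± 0.14 (log2, SE, adjusted p = 1.50e-06), which was called. The difference between positive cells was 0.96 ± 0.14 (adjusted p = 6.68e-05) and was not past 2-fold. Within CFPAC-1 the positive samples all lay above the negative ones, with a log2 fold change of 0.50 ± 0.14 (adjusted p = 0.0137), also under 2-fold. Within SW1990 the change was 0.01 ± 0.14 (adjusted p = 0.967).

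*CA2* encodes the cytosolic carbonic anhydrase of the duct, on chromosome 8 (86376197 to 86393722, plus strand). Its levels were 8.27, 8.38 and 6.99 RPKM in SW1990 negative and 11.9, 11.1 and 12.3 RPKM in SW1990 positive cells. CFPAC-1 held 1.97, 2.47 and 2.47 RPKM in negative and 2.71, 2.56 and 3.01 RPKM in positive cells. In each line every positive sample was above every negative one, but the log2 fold changes were small, 0.58 ± 0.13 (SE, adjusted p = 0.00537 with limma) in SW1990 and 0.25 ± 0.13 (adjusted p = 0.146) in CFPAC-1. *CA2* was higher in SW1990 by 1.73 ± 0.13 (adjusted p = 2.05e-07) in negative and by 2.06 ± 0.13 (adjusted p = 7.40e-08) in positive cells, and both were called.

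*CA12* encodes a carbonic anhydrase anchored in the membrane with its active site outside the cell, on chromosome 15 (63613577 to 63674045, minus strand). SW1990 held 1.30, 1.64 and 1.42 RPKM in negative cells and 0.0778, 0.0296 and 0.0284 RPKM in positive cells, the latter from 6, 2 and 2 reads. CFPAC-1 held 6.73, 4.92 and 4.15 RPKM in negative and 1.91, 2.26 and 2.45 RPKM in positive cells. Positive cells lay below negative cells in every sample of each line, and CFPAC-1 lay above SW1990. *CA12* fell by 3.43 ± 0.22 on the log2 scale in positive SW1990 cells (SE, adjusted p = 5.00e-07 with limma) and by 1.20 ± 0.22 in positive CFPAC-1 cells (adjusted p = 0.00159). As ratios of mean RPKM, negative cells held 32.1 times the level of positive cells in SW1990 (50.1 times without SW1990 positive replicate 1) and 2.39 times in CFPAC-1. The lines differed by -1.77 ± 0.22 (SW1990 against CFPAC-1, adjusted p = 1.71e-05) in negative and by -4.00 ± 0.22 (adjusted p = 2.41e-08) in positive cells. The level of *CA2* was 4.92 to 6.37 times that of *CA12* in SW1990 negative samples and 0.293 to 0.595 times in CFPAC-1 negative samples. In positive samples *CA2* was above *CA12* in both lines, 153 to 432 times in SW1990 and 1.13 to 1.41 times in CFPAC-1.

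*SCNN1A* encodes the alpha subunit of the epithelial sodium channel, on chromosome 12 (6456009 to 6486896, minus strand). SW1990 held 29.7, 33.9 and 44.8 RPKM in negative and 55.9, 88.9 and 88.7 RPKM in positive cells. CFPAC-1 held 139, 141 and 137 RPKM in negative and 49.6, 69.7 and 55.6 RPKM in positive cells. Positive samples were all above negative ones in SW1990 and all below them in CFPAC-1. *SCNN1A* rose by 1.09 ± 0.19 in SW1990 (log2, SE, adjusted p = 0.00114 with limma) and fell by 1.26 ± 0.19 on the log2 scale in CFPAC-1 (adjusted p = 0.000527). The rise in SW1990 was close to the 2-fold threshold, at 0.96, 0.98 and 0.98 without negative replicate 1, positive replicate 2 and positive replicate 3. Negative cells of the lines differed by -1.96 ± 0.19 (SW1990 against CFPAC-1, adjusted p = 2.31e-06). Positive cells overlapped between the lines, with a log2 difference of 0.40 ± 0.19 (adjusted p = 0.0926).

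The beta and gamma subunits that complete the channel, *SCNN1B* and *SCNN1G*, were nearly absent from the reads. Their group means ranged from 0 to 0.0816 RPKM and from 0 to 0.122 RPKM. Recovered counts, the smallest possible for genes with so few reads, were at most 6 and 9 reads in any sample. *SCNN1D*, the delta subunit, fell in positive cells of each line, by 1.10 ± 0.24 on the log2 scale in SW1990 (SE, adjusted p = 0.00483 with limma) and by 1.58 ± 0.24 in CFPAC-1 (adjusted p = 0.000550).

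*ANO1* encodes the calcium-activated chloride channel, on chromosome 11 (69832013 to 70035636, plus strand). It was at 64.4, 52.1 and 58.4 RPKM in SW1990 negative and at 117, 118 and 129 RPKM in SW1990 positive cells. CFPAC-1 held 26.7, 35.4 and 36.0 RPKM in negative and 26.2, 25.2 and 54.7 RPKM in positive cells. SW1990 positive cells stood above all other groups, and the CFPAC-1 groups overlapped. *ANO1* rose by 1.06 ± 0.24 in positive SW1990 cells (log2, SE, adjusted p = 0.00583 with limma), and by 0.98 without negative replicate 2, just under 2-fold. In CFPAC-1 the change was 0.03 ± 0.24 (adjusted p = 0.944), and -0.33 (adjusted p = 0.0693) without positive replicate 3, the library with the fewest reads and the value of 54.7 RPKM. The sign of the change in CFPAC-1 also turned when each sample was centred on its median, to -0.07. SW1990 exceeded CFPAC-1 by 1.87 ± 0.24 among positive cells (adjusted p = 3.06e-05), which was called, and by 0.84 ± 0.24 among negative cells (adjusted p = 0.00801), which was under 2-fold. In all 12 samples *ANO1* was far above *CFTR*, the other chloride channel of the 10 genes. The short antisense gene *ANO1-AS1* overlaps its end on the minus strand (70033894 to 70034615).

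*AQP3* encodes a water and glycerol channel, on chromosome 9 (33441154 to 33447594, minus strand). SW1990 held 0.104, 0.0459 and 0.302 RPKM in negative cells, from 4, 2 and 10 reads, and 0.386, 1.32 and 1.21 RPKM in positive cells. CFPAC-1 held 3.32, 3.15 and 2.84 RPKM in negative and 9.26, 9.68 and 7.18 RPKM in positive cells. The 4 groups did not overlap, and positive cells lay above negative cells in each line. *AQP3* rose by 2.08 ± 0.42 in SW1990 (log2, SE, adjusted p = 0.00257 with limma) and by 1.45 ± 0.42 in CFPAC-1 (adjusted p = 0.0176). The call in CFPAC-1 was lost when 1 of 5 samples was left out, namely any negative replicate or positive replicate 1 or 2, with log2 fold changes of 1.37 to 1.50. The lines differed by -3.81 ± 0.42 in negative cells (SW1990 against CFPAC-1, adjusted p = 5.35e-06) and by -3.18 ± 0.42 in positive cells (adjusted p = 3.47e-05).

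*AQP5* encodes an apical water channel of secretory epithelia, on chromosome 12 (50355655 to 50359465, plus strand). CFPAC-1 held 250.4, 323 and 299 RPKM in negative and 181, 219.5 and 242 RPKM in positive cells, between the 99.0th and 99.6th percentile of all genes. SW1990 held 0.454, 0.401 and 0.248 RPKM in negative and 1.56, 1.16 and 2.51 RPKM in positive cells, between the 36.5th and 52.6th percentile. No other transport gene separated the lines by as much in negative cells. The log2 difference of SW1990 from CFPAC-1 was -9.30 ± 0.24 (SE, adjusted p = 4.77e-11 with limma) in negative and -6.91 ± 0.24 (adjusted p = 6.22e-10) in positive cells. As ratios of mean RPKM, CFPAC-1 held 790.1 and 123 times the level of SW1990. The ratio in negative cells rests on 17, 17 and 8 reads in SW1990, and was 680 to 895 with 1 sample left out. Sorting changed it within this low range in SW1990, where it rose by 1.94 ± 0.24 (adjusted p = 8.84e-05), a ratio of mean RPKM of 4.74. The positive samples of CFPAC-1 were each below its negative samples, but the log2 change of -0.44 ± 0.24 was not called (adjusted p = 0.176). The antisense gene *AQP5-AS1* (50345295 to 50356707, minus strand) overlaps its start.

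The 250 bases before the annotated starts of *AQP5* and *CA12* are shown. *AQP5* gave the widest difference between negative cells of the lines, and *CA12* the widest fall with the sort, in SW1990. Stretches of *SLC4A4* and *AQP3* were also taken, and are not printed because they were not found unchanged in GRCh37. Those shown are RefSeq sequences of GRCh38.p14 found unchanged in GRCh37, at chr12:50355405-50355654 (plus strand) and chr15:63674046-63674295 (minus strand). Both are written 5′ to 3′ with each CG in capitals. CG was counted on the strand shown, which gives the same count on the other strand.
AQP5: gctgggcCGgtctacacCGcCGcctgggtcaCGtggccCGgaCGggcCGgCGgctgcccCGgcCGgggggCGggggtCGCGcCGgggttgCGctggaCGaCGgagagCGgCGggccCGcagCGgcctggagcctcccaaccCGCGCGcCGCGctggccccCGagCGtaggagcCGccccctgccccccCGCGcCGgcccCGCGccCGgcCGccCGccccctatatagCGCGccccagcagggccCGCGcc
CA12: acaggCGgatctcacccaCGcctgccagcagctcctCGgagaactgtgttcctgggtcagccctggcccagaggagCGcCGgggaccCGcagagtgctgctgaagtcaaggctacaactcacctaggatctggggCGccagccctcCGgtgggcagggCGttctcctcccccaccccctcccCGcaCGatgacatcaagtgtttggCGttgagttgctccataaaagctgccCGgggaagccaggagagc
The *AQP5* stretch holds 41 CG, a number reached by 1.73% of the 35116 starts in the table, whose median is 11. The *CA12* stretch holds 13, and 46.6% of starts have at least as many. Of the stretches not printed, that of *SLC4A4* holds 36 (4.85% of starts). It was taken at the start with the most CG of its 5 listed starts, and the others hold 0, 2, 3 and 33. That of *AQP3* holds 23 (25.8% of starts). A start was listed for 8 of the 10 genes. Methylation was not measured, and the counts describe the sequence alone.

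**Figure D2:**
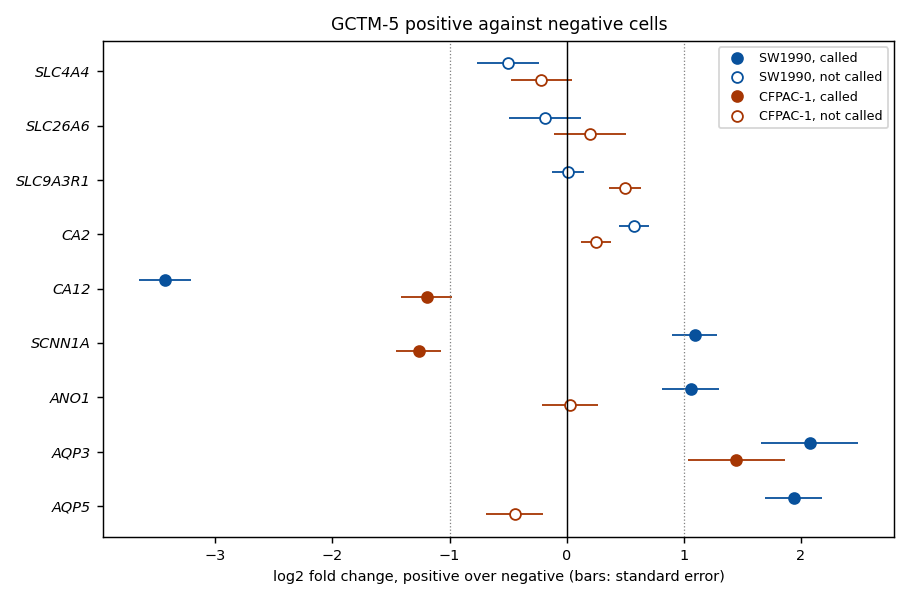
Log2 fold change of GCTM-5 positive over negative cells for the 9 transport genes tested, in SW1990 (blue) and CFPAC-1 (red), with bars for the standard error and dotted lines at 2-fold. Filled points are called: 5 genes in SW1990 and 3 in CFPAC-1, with *SCNN1A* at 1.09 and -1.26.

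The change with sorting was then compared between the lines. The difference (SW1990 minus CFPAC-1) was called at an adjusted p under 0.05 for 4 of the 9 genes, 3 of them higher in SW1990 and 1 lower, beside 26.9% of all genes (9.16% higher and 17.8% lower). The median difference over all genes was -0.15, and 0.00081 with each sample centred on its median. It was 2.36 ± 0.27 for *SCNN1A* (log2, SE, adjusted p = 0.000105 with limma) and 2.38 ± 0.34 for *AQP5* (adjusted p = 0.000428). For *CA12* the difference was -2.23 ± 0.31 (adjusted p = 0.000344), a deeper fall in SW1990. This rests on the few reads in positive SW1990 cells, and with 1 in place of 0.1 added to each RPKM it was -0.28 (adjusted p = 0.314). For *ANO1* it was 1.03 ± 0.34 (adjusted p = 0.0425), and the call was lost when any of 10 of the 12 samples was left out. The difference was not called for *AQP3*, at 0.63 ± 0.59 (adjusted p = 0.467), nor for *CA2*, at 0.32 ± 0.18 (adjusted p = 0.218). *SLC26A6* and *SLC4A4* gave -0.39 ± 0.43 and -0.28 ± 0.37 (adjusted p = 0.546 and 0.611), and *SLC9A3R1* gave -0.49 ± 0.19 (adjusted p = 0.0821).

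**Figure D3:**
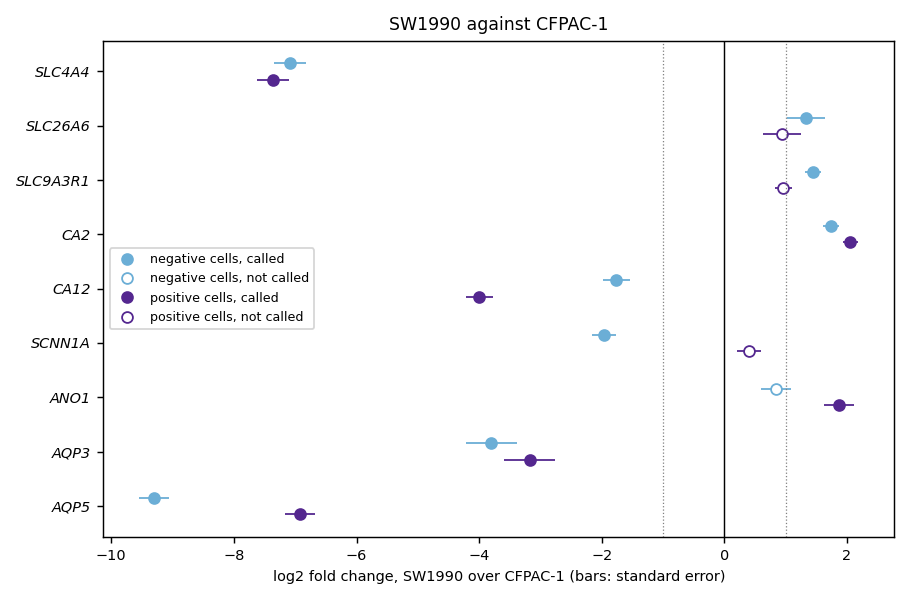
Log2 fold change of SW1990 over CFPAC-1 for the same 9 genes, in negative (light blue) and positive (purple) cells, with bars for the standard error and dotted lines at 2-fold. *SLC4A4*, *CA12*, *AQP3* and *AQP5* lie below -1 in both populations, whereas *SCNN1A* does so in negative cells, at -1.96, and lies at 0.40 in positive cells.

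The order of the 4 groups fell into a few patterns. *ANO1*, *CA2* and *SLC9A3R1* had their highest mean in SW1990 positive cells, followed by SW1990 negative, CFPAC-1 positive and CFPAC-1 negative cells. Neighbours in this order overlapped for *SLC9A3R1* within SW1990, and for *ANO1* between SW1990 negative and CFPAC-1 positive cells and within CFPAC-1. *SLC26A6* differed from them in having SW1990 negative cells first, with overlap within each line. *SLC4A4* and *CA12* ran from CFPAC-1 negative through CFPAC-1 positive and SW1990 negative to SW1990 positive cells, with overlap within each line for *SLC4A4* and none for *CA12*. *AQP5* shared the top of that order and had SW1990 positive above SW1990 negative cells, while *AQP3* was highest in CFPAC-1 positive cells. *SCNN1A* alone placed SW1990 positive above CFPAC-1 positive cells between the other groups, and those neighbours overlapped.

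A further 100 genes of duct transport, in 7 lists that were chosen with earlier results of these data known, give the setting of the 10. Of these, 75 passed the filter. In SW1990, 13 rose and 8 fell with the sort (28% of those tested, beside 12.1% of all genes), and in CFPAC-1 3 rose and 5 fell (10.7%, beside 9.78%). The median log2 fold change of the 75 genes was -0.14 in SW1990 and -0.01 in CFPAC-1. Among negative cells, 17 were higher and 19 lower in SW1990 than in CFPAC-1 (48%, beside 36.9% of all genes), and among positive cells 16 were higher and 13 lower (38.7%, beside 28.5%). The difference in sorting change between the lines was called for 33 of the 75 genes (44%, beside 26.9% of all genes), 19 higher and 14 lower in SW1990 (9.16% and 17.8% of all genes). The single lists below hold 5 to 18 tested genes each, and their counts are to be read beside the same shares of all genes, 12.1% with the sort in SW1990 and 9.78% in CFPAC-1.

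Among the 15 tested anion channels and exchangers, 4 rose and 2 fell in SW1990, and 1 rose in CFPAC-1. *SLC4A11*, a bicarbonate transporter relative, was the one that rose in each line, by 1.59 ± 0.20 in SW1990 (log2, SE, adjusted p = 8.75e-05 with limma) and by 1.78 ± 0.20 in CFPAC-1 (adjusted p = 8.40e-05). The chloride channel and exchanger gene *SLC26A9* rose in SW1990 from 0.429 ± 0.0642 to 3.27 ± 1.24 RPKM (SD, n = 3), a log2 fold change of 2.60. In CFPAC-1 it averaged 8.80 ± 1.36 and 5.55 ± 3.13 RPKM, which was not called. *SLC12A2*, the basolateral sodium potassium chloride cotransporter, was lower in SW1990 than in CFPAC-1, by -3.07 (log2) in negative cells and by -1.70 in positive cells.

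Of the 8 tested genes of sodium and proton transport, the sodium proton exchanger gene *SLC9A2* rose in each line, by 1.31 in SW1990 and by 1.64 in CFPAC-1 (log2). *FXYD3*, a regulator of the sodium pump, rose in SW1990 by 3.29, and *SCNN1D* fell in each line as given above. Of 6 tested potassium channel genes, 1 rose and 2 fell in SW1990 and 0 were called in CFPAC-1. *KCNK5* rose in SW1990 by 1.60. Of 7 tested carbonic anhydrase genes, *CA13* rose in SW1990 by 1.41, and *CA11* fell by 1.14 in SW1990 and by 1.25 in CFPAC-1 on the log2 scale. Of 5 tested aquaporin genes, 2 rose in SW1990 and 1 fell in CFPAC-1.

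Receptors and regulators complete the picture of secretion. Of 16 tested genes of duct secretory signalling, 2 rose and 2 fell in SW1990, and 1 rose and 1 fell in CFPAC-1. *P2RY2*, the ATP and UTP receptor that stimulates calcium-dependent secretion, rose in SW1990 from 16.6 ± 2.09 to 44.5 ± 0.979 RPKM (SD, n = 3). *VIPR1*, a receptor for vasoactive intestinal peptide, fell by 1.24 on the log2 scale in SW1990, and was 5.74 higher (log2) in SW1990 than in CFPAC-1 among negative cells. *SCTR*, the secretin receptor gene, had group means between 0.00974 and 0.108 RPKM. Of 18 tested kinases and partners of CFTR and the sodium channel, *PRSS8*, a protease that activates the sodium channel, rose in SW1990 by 3.59, from 6.49 ± 3.11 to 78.6 ± 31.3 RPKM. *SGK1*, a kinase that raises sodium channel number at the membrane, fell in CFPAC-1 by 1.82 on the log2 scale.

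**Figure D4:**
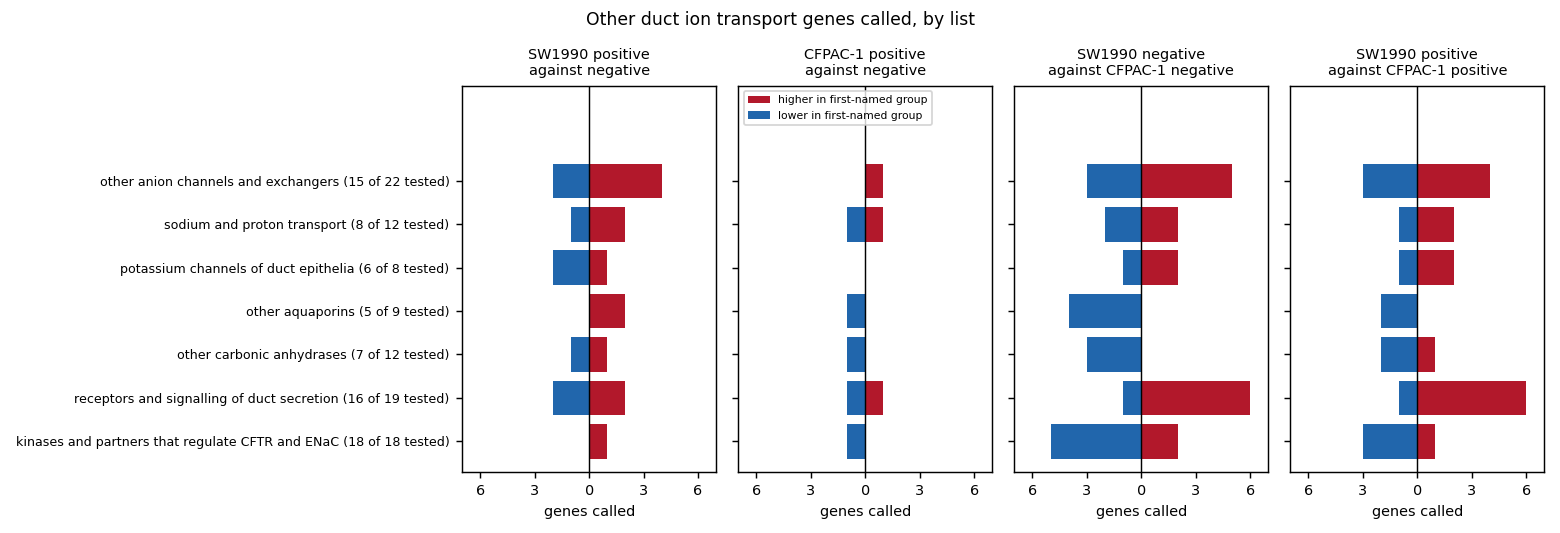
Number of other duct transport genes called in each of 4 comparisons, by list, with genes higher in the group named first to the right (red) and lower ones to the left (blue). Between negative cells of the lines, where 21.9% of all genes were higher and 15% lower in SW1990, 4 of 5 aquaporins were lower, and of 16 genes of secretory signalling 6 were higher and 1 lower.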

How the data were processed

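RNA-seq of 12 samples in 4 groups was used. According to the paper, the authors aligned reads to hg19 (GRCh37) and computed the deposited RPKM values with QuasR, dividing read counts by gene length and library size. The annotation, the use of strand and the QuasR version are not given in the sources used here. The members and lists were chosen with earlier results of these data known.

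The 16236 genes averaging 0.1 RPKM or more entered 1 linear model of log2(RPKM + 0.1), made of 4 group means without covariates, using lmFit, contrasts.fit and trended eBayes of limma 3.58.1 (R 4.3.3). Tests were 2-sided. A gene was called over 2-fold with an unadjusted p under 0.01, the thresholds of the study, whose tool TCC needs counts and was not used. The difference between lines in the change with sorting was called at an adjusted p under 0.05. Tested on simulated data, the SW1990 comparison recovered 100 of 100 genes raised 4-fold and 100 of 100 lowered, with 26 false calls over 16255 genes. All groups had the same base levels there, only genes of 1 RPKM or more were changed, and every gene had the same fixed dispersion, not fitted to these data. The simulation thus does not cover changes near 2-fold, genes with few reads or the replicate spread seen here.

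Reads were recovered from the RPKM values with lengths of single-exon genes from GENCODE 44 on GRCh37. All 19654 genes above 0 gave whole reads to within 0.01. Intervals from reads cover counting error only. Replicates of a group differed by more than sampling noise, with chi-square values per degree of freedom of 6.03 to 35.8.

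Named genes were the 10 members and, of each list, up to 3 genes per comparison with a mean RPKM of 1 or more, by size of the change. Of the 6 duct markers, 1 is not reported by name. Others named were chosen after their values were seen: *SCNN1B*, *SCNN1G* and *SCTR*, which are near 0. The genes most like *CFTR* were to be named by correlation, which was not done because *CFTR* was above 0 in 2 samples. Alternatives were pseudocounts of 1 and 0.01, no filter or a mean RPKM of 1 or more, centring, quantile normalization, voom on recovered reads with trimmed mean of M-values scaling (own implementation), no trend, other call rules, the 2 groups alone, a replicate block, and each of the 12 samples left out. Ratios of mean RPKM with a sample left out were added after seeing the data. Other tools were matplotlib 3.10.9, numba 0.67.0, numpy 2.4.6, pandas 2.3.3 and Python 3.11.15.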

Additional observations from a re-analysis of the deposited data

Results flagged for a closer look

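For 4 transport genes the change from negative to positive cells differed between the lines, by limma's test of the difference itself (SW1990 minus CFPAC-1, log2, adjusted over all genes tested, of which 26.9% were called). The difference was 2.38 for *AQP5* (adjusted p = 0.000428), which rose by 1.94 in SW1990 and had an uncalled change of -0.44 in CFPAC-1, where its level is far higher. For *SCNN1A* it was 2.36 (adjusted p = 0.000105), with called changes of 1.09 and -1.26. For *CA12* it was -2.23 (adjusted p = 0.000344), with falls in each line. For *ANO1* it was 1.03 (adjusted p = 0.0425), with values of 1.06 in SW1990 and 0.03 in CFPAC-1, where 1 library stood apart. Markers of epithelial and mesenchymal cells also moved with the sort in SW1990, as given above, and their part in these differences was not tested.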

How the results depend on the processing

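Of 45 values (9 transport genes in 5 comparisons), 24 kept their direction and side of the threshold under every alternative run, and 7 changed sign under some alternative. The number of transport genes called between SW1990 positive and negative cells was 5, and 3 with a pseudocount of 1, where *AQP5* (0.98) and *AQP3* (0.75) came under 2-fold. With a pseudocount of 1, *CA12* in CFPAC-1 also came under 2-fold, at -0.95, and the difference between lines in the change with sorting turned to -0.49 for *AQP3* and 0.13 for *SLC4A4*. Quantile normalization gave -0.028 for *SLC9A3R1* between SW1990 populations and -0.066 for *ANO1* between CFPAC-1 populations. For *SLC4A4* it gave 0.11 for the difference between lines in the change with sorting. *ANO1* between CFPAC-1 populations was -0.070 with each sample centred on its median and -0.060 with voom on recovered reads. Leaving out 1 sample at a time gave ranges of -0.12 to 0.13 (*SLC9A3R1*) and -0.47 to 0.0061 (*SLC26A6*) in SW1990, and of -0.33 to 0.22 (*ANO1*), -0.041 to 0.55 (*SLC26A6*) and -0.38 to 0.052 (*SLC4A4*) in CFPAC-1. None of the values that turned was called. The cause was not tested. *AQP3* in SW1990 lost its call when those 2 groups were fitted alone (limma adjusted p = 0.0463). *AQP3* in CFPAC-1 also lost its call with a pseudocount of 0.01 (adjusted p = 0.0641) and with no filter on low values (0.0540). These calls were lost because the unadjusted p was no longer below 0.01, and the adjusted values are given beside. For *ANO1*, the difference between lines in the change with sorting lost its call with no filter (0.109) and without a trend (0.0649). Centring changed the balance of all genes called in CFPAC-1 from 917 higher and 671 lower to 724 and 858. Between negative cells of the lines it changed from 3560 and 2433 to 2880 and 2937. For the difference between lines in the change with sorting it changed from 1487 and 2887 to 1987 and 1988.

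The main fit did not pair samples by replicate number. The paper names triplicate sorts, and whether samples of the same number share a sort could not be decided, because differently numbered samples were not correlated. Over 12 pairs of same-numbered samples the deviations from the group means correlated at -0.059 to 0.185, and 4 pairs were over 0.1. With a replicate block, the difference between lines in the change with sorting was called for *SLC9A3R1* (-0.49, adjusted p = 0.0458). This made 5 of 9 genes, and no other call changed among the 45 values. Depth limits *CFTR* in all groups and *CA12*, *AQP3* and *SLC4A4* in SW1990, where samples held as few as 2 reads. It also limits *AQP5* in SW1990 negative cells, with 8 to 17 reads per sample.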

Other observations

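*AQP5* lies between a pair of other aquaporin genes on chromosome 12 of GRCh37, *AQP2* (50344520 to 50352661) and *AQP6* (50360977 to 50370922), all on the plus strand. These encode water and anion channels best known from the kidney. In SW1990, *AQP2* averaged 0.434 ± 0.287 (negative cells) and 1.48 ± 0.901 RPKM (positive cells), and *AQP6* 0.166 ± 0.0877 and 0.879 ± 0.236 RPKM (SD, n = 3). Both rose with the sort there, as *AQP5* did. In CFPAC-1, *AQP2* averaged 2.94 ± 0.629 and 1.62 ± 0.143 RPKM and *AQP6* 2.46 ± 0.132 and 0.844 ± 0.0242 RPKM, and *AQP6* fell. The level of *AQP2* was 0.625% to 1.20% of that of *AQP5* in CFPAC-1 samples and 35.9% to 289% in SW1990 samples, where 8 to 81 reads lay on *AQP5*. Reads that match neighbouring or overlapping genes were not examined.

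*VIPR1* and *SLC4A4* separated the lines in opposite directions. *VIPR1* stood at 54.7 ± 13.6 and 23.4 ± 8.09 RPKM in SW1990 negative and positive cells and at 0.908 ± 0.0918 and 1.86 ± 0.238 RPKM in CFPAC-1. *SLC4A4* stood at 0.108 and 0.0472 RPKM in SW1990 and at 27.6 and 24.5 RPKM in CFPAC-1.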
